A study of Mus musculus with 4 samples.

Results

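The comparison described here sets an agonist of retinoic acid receptor alpha, BMS753, beside a mixture of agonists of receptors gamma and beta, BMS961+BMS641, in sections of mouse brain organoids measured by spatial transcriptomics. It uses 2 of the 4 sections of the organoid experiment, 1 for each treatment. The organoids were grown from CARLIN/Cas9 mouse embryonic stem cells, a line with a barcode that Cas9 edits for tracing lineages, seeded at 5000 cells per well, and were 3 months old. From day 9 the medium held BMS753 at 1 µM in one group and BMS961+BMS641 at 0.1 µM in the other. The labels do not say whether 0.1 µM is the concentration of each compound or of both together. The other sections came from organoids of the same cells and age given 2% B27 with vitamin A (VitaminA) or all-trans retinoic acid at 1 µM (ATRA), and their levels are shown only to place a value. Several organoids were frozen in each block, so a section can hold more than 1 organoid. With 1 section a side, agonist, dose and section cannot be told apart, and every difference below is a description of these sections that was not tested.

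Retinoic acid, made from vitamin A, binds the nuclear receptors RAR alpha, beta and gamma, which pair with RXR receptors on DNA and switch from recruiting corepressors to recruiting coactivators when a ligand binds. In the embryo it drives stem cells towards neurons and gives hindbrain and spinal cord tissue its position along the body axis through Hox genes. Its level is set by enzymes that make it (Rdh10 and the Aldh1a family), proteins that carry it (Rbp and Crabp families) and enzymes of the Cyp26 family that break it down, and several of these genes are themselves its targets.

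The BMS753 section held 469 spots in 1 piece and the BMS961+BMS641 section 365 spots in pieces of 342 and 23 spots. A spot is a small area that can hold several cells. Of 20186 genes listed in both, 14973 reached 5 ppm of the summed signal (the share of a gene in the signal of a section, the unit of every level below) in at least 1 section and were compared. Each spot has a lowest class of positive values, taken as ties. Over all spots it held 65.0% of the positive values in BMS753 and 63.3% in BMS961+BMS641. This class made up 13.8% of the signal in BMS753 and 6.75% in BMS961+BMS641. A spot held a median of 3330 genes above that class in BMS753 and 4462 in BMS961+BMS641. Taken over genes, which share the libraries and are no independent points, the share of spots above the lowest class followed the genomic span of a gene, with a Spearman correlation of 0.837 in BMS753 and 0.799 in BMS961+BMS641. Of 20 transcripts abundant in most cells, 6 reached 5 ppm in a section. Actb, which encodes a cytoskeletal actin, stood at 1.13 ppm in BMS753 and 0.728 ppm in BMS961+BMS641. Gfap, a marker of astroglia, had 2.33 and 0.451 ppm, and Vim, a filament gene of progenitors, had 0.336 and 0.356 ppm. Rbfox3, which encodes a nuclear protein of mature neurons, was above the lowest class in 91.3% and 94.5% of spots. Over the 22 pan-neuronal genes listed, the median share of spots was 25.7% and 37.9%. Sox2, a progenitor factor, was not analysed here.

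Differences between the sections were lopsided. More genes stood far higher in BMS961+BMS641 than stood far higher in BMS753. The median gene had a log2 ratio of 0.64 in favour of BMS753, between 0.25 and 0.75 over the 16 pairs of section quadrants, and this median was subtracted, so that each ratio below is BMS753 over BMS961+BMS641 relative to the median gene. On that scale 960 genes (6.41%) were at least 2-fold higher in BMS753 and 2345 genes (15.7%) at least 2-fold lower. Without the subtraction the counts turned to 3905 higher and 1239 lower, so the direction of modest ratios depends on it. At 8-fold, 31 genes (0.207%) were higher in BMS753 and 421 genes (2.81%) lower. In ppm, all 4 quadrants of BMS753 stood above all 4 of BMS961+BMS641 for 4659 genes (31.1%), and below them for 1588 genes (10.6%). Relative to the median gene the tilt was the opposite, with 1503 genes (10.0%) higher in every quadrant of BMS753 and 3066 (20.5%) lower. Counts of 2-fold genes in the lists below stand beside 6.41% of all genes higher in BMS753 and 15.7% lower. Statements on quadrants below are in ppm. Relative to the median gene, the quadrants of some genes that were separate in ppm overlapped. Among them were Aldh1a3, Aldoa, Bco1, Cdx1, Ep300 and Tubb3. By contrast, the quadrants of Rara, Rxra, Rxrg, Gad2 and Hoxb3, which overlapped in ppm, were all lower in BMS753 on that scale. Quadrants describe variation within a section and are no replicates. In a spot, fewer cells of a type and less RNA per cell cannot be told apart.

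Of the receptor genes compared, Rarb, Rara, Rarg and Rxra differed little in ppm, and Rxrg differed more. Rarb, which encodes receptor beta and is a classic target of retinoic acid, was the receptor gene with the highest level in both sections. It had 187 ppm in BMS753, with quadrants of 153, 164, 234 and 211 ppm, and 153 ppm in BMS961+BMS641, with quadrants of 139, 168, 140 and 165 ppm. The quadrants overlapped, the log2 ratio was -0.36, and the levels in VitaminA (178 ppm) and ATRA (152 ppm) lay in the same range. Rara, which encodes the receptor that BMS753 activates, had quadrants of 49.1 to 58.4 ppm in BMS753 and of 52.3 to 70.7 ppm in BMS961+BMS641, with a log2 ratio of -0.84. Rarg, which encodes receptor gamma, had 34.2 ppm against 27.2 ppm, again with overlapping quadrants. Among the RXR partners, Rxra stood at 55.1 and 56.2 ppm, and Rxrg, the form found in neurons and muscle, at 13.5 and 24.6 ppm with a log2 ratio of -1.47. Rxrb was under 5 ppm in both sections and was not compared. All 5 receptor genes compared lay below the median gene, with a list median of -0.67, where the median over all genes is 0 by construction. Without the subtraction that median was -0.03, so in ppm the receptors as a group were level.

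**Figure D1:**
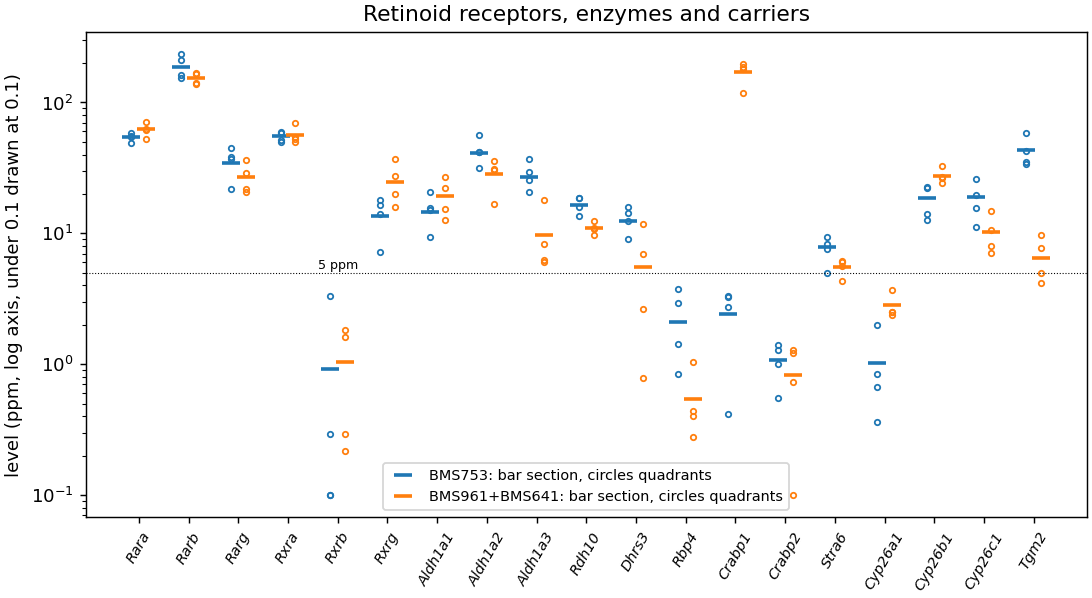
Levels of retinoid receptor, enzyme and carrier genes in ppm of the signal of a section, on a log axis, in BMS753 (blue) and BMS961+BMS641 (orange); bars are sections and circles their 4 quadrants. Crabp1 and Tgm2 are the genes whose quadrants lie farthest apart, in opposite directions, while the circles of Rarb, Rara and Rarg overlap.

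The regulatory sequence of Rarb is a textbook example of direct control by these receptors. Its proximal promoter holds a direct repeat of receptor binding hexamers with 5 bases between them, and so does that of Cyp26a1, the main retinoic acid hydroxylase gene. Both are shown from RefSeq on GRCm38.p6, 5′ to 3′ along the gene, with the repeat in capitals. The deposited values were made on mm9, so these positions place the sequence only. The Rarb window is chr14:16575477-16575566 on the minus strand, and the repeat lies 53 to 37 bases before the start. The Cyp26a1 window is chr19:37697718-37697807 on the plus strand, with the repeat, read on the opposite strand, 32 to 16 bases before the start.
Rarb: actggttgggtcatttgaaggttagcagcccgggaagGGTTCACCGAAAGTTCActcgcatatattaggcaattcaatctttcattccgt
Cyp26a1: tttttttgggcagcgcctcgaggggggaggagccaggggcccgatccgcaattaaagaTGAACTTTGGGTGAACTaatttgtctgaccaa
The hexamers searched were the consensus AGGTCA and its variants: GGGTCA was one, AGTTCA another, and GGTTCA the last, each on both strands. Such a pair 5 bases apart was found in 32 of 32851 promoters of 300 bases (0.0974%), belonging to 31 genes, of which 8 were compared. Their median log2 ratio was -0.20, with 0 genes 2-fold higher and 1 lower. The exception was Prokr2, a receptor for prokineticins, at 4.81 ppm in BMS753 and 7.80 ppm in BMS961+BMS641 (-1.24). Syndig1, which encodes a synapse protein, had the highest ratio of the 8, 0.90, with 82.3 and 27.7 ppm. Repeats with 1 base between the hexamers were in 0.222% of promoters, with a median of -0.16 over 26 genes compared, and those with 2 bases were in 0.268%, with a median of 0.09 over 15. A match to these letters is a description and not a bound site.

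Cyp26a1 itself was close to the floor, at 1.01 ppm in BMS753 and 2.81 ppm in BMS961+BMS641, and was not compared. Cyp26b1, the related hydroxylase of the hindbrain and limb, had 18.5 ppm (quadrants 12.7 to 22.5) against 27.3 ppm (24.1 to 32.5), a log2 ratio of -1.18, and its quadrants did not overlap. Cyp26c1 stood at 19.0 and 10.1 ppm but was above the lowest class in 5.33% and 7.40% of spots, so most of its level is tied signal. Of these Cyp26 genes only Cyp26c1 was higher in BMS753 in ppm, and its share of spots was lower there. Whether the hydroxylases share a direction cannot be read from these levels.

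The genes of retinoic acid synthesis and retinoid reduction summed to 218 ppm in BMS753 (quadrants 192 to 262) and 150 ppm in BMS961+BMS641 (131 to 180), and relative to the median gene they went both ways, with a list median of -0.11. Of 9 compared, 0 were 2-fold higher in BMS753 and 2 were 2-fold lower. Aldh1a2, the main retinaldehyde dehydrogenase of the embryo, had 41.1 ppm against 28.5 ppm with overlapping quadrants, while VitaminA had 296 ppm. Aldh1a3, a dehydrogenase of the eye and forebrain, was higher in every quadrant of BMS753, at 27.1 ppm (20.8 to 36.9) against 9.68 ppm (6.06 to 18.1), with a log2 ratio of 0.75. Aldh1a1 had 14.6 and 19.4 ppm (-1.02) with overlapping quadrants. Rdh10, which makes retinaldehyde, had 16.3 and 11.0 ppm (-0.11), and Bco1, which cleaves carotene to retinaldehyde, 79.4 and 36.0 ppm (0.48). The lowest ratio of the list was that of Rpe65, the retinoid isomerase of the eye, at 6.97 ppm against 27.3 ppm (-2.47).

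The carrier gene Crabp1 gave the widest gap of the pathway. It encodes a cytoplasmic protein that binds retinoic acid, and its level was 2.44 ppm in BMS753, with quadrants of 3.30, 3.24, 0.419 and 2.72 ppm, against 171 ppm in BMS961+BMS641, with quadrants of 118, 198, 181 and 187 ppm. The log2 ratio was -6.29. Crabp1 was above the lowest class in 6.82% of BMS753 spots and in 85.2% of BMS961+BMS641 spots. It had 8.76 ppm in VitaminA and 11.0 ppm in ATRA, so the BMS961+BMS641 section stood apart from the other 3. Its shares of spots place Crabp1 among the 106 genes described below as found across the BMS961+BMS641 section and in few BMS753 spots. The median log2 ratio of those genes was -5.22, and the part of such section-wide detection in the Crabp1 gap was not tested. Crabp2, a relative of Crabp1, was near the floor in both sections, at 1.07 and 0.824 ppm. Stra6, the retinol uptake receptor, had 7.84 and 5.53 ppm with overlapping quadrants.

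Among 16 compared genes known to respond to retinoic acid, 2 were 2-fold higher in BMS753 and 2 lower, and the median was -0.02. Tgm2, a tissue transglutaminase induced by retinoic acid in several cell types, was the leading one. It had 43.4 ppm in BMS753, with quadrants of 42.2, 58.4, 35.1 and 33.8 ppm, and 6.47 ppm in BMS961+BMS641, with quadrants of 4.94, 9.70, 7.74 and 4.20 ppm. The log2 ratio was 1.93, and VitaminA (16.5 ppm) and ATRA (10.6 ppm) lay between. Cdx1, a caudal factor that acts on Hox genes, had 9.90 ppm against 3.45 ppm (0.65). In VitaminA, Cdx1 had 55.5 ppm.

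Of 13 corepressor and coactivator genes compared, 1 was 2-fold higher in BMS753 and 2 were 2-fold lower, with a median of -0.38. These counts are near the shares over all genes, 6.41% higher and 15.7% lower. Ncoa2, a coactivator of the p160 family, was the higher one, at 160 ppm (135 to 174) against 50.4 ppm (42.2 to 58.3), a log2 ratio of 1.01. The histone methyltransferase gene Carm1 (0.79) and the acetyltransferase gene Ep300 (0.28) were less than 2-fold above the median gene.

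The lowest ratios belonged to genes found across the whole BMS961+BMS641 section and in few spots of BMS753. In BMS961+BMS641, 106 genes were above the lowest class in at least 80% of spots while being so in under 20% of BMS753 spots, and 0 genes showed the opposite. Fewer genes could show the opposite, since 354 genes reached 80% of spots in BMS753 and 1149 in BMS961+BMS641. The 106 genes took 3.45% of the signal of BMS961+BMS641, 0.178% of that of BMS753, 0.207% of that of VitaminA and 0.153% of that of ATRA. Their median level was 275 ppm in BMS961+BMS641 and 11.1 ppm in BMS753. Of the 105 listed in all sections, 62 were also under 20% of spots in both VitaminA and ATRA. Genes at least 80% in 1 section and under 20% in each of the other 3 numbered 63 for BMS961+BMS641, 48 for ATRA, 31 for VitaminA and 0 for BMS753, of 1149, 744, 1137 and 354 genes at 80% or more. Just outside the limit, the next share of spots below 80% in BMS961+BMS641 was 79.7%.

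**Figure D2:**
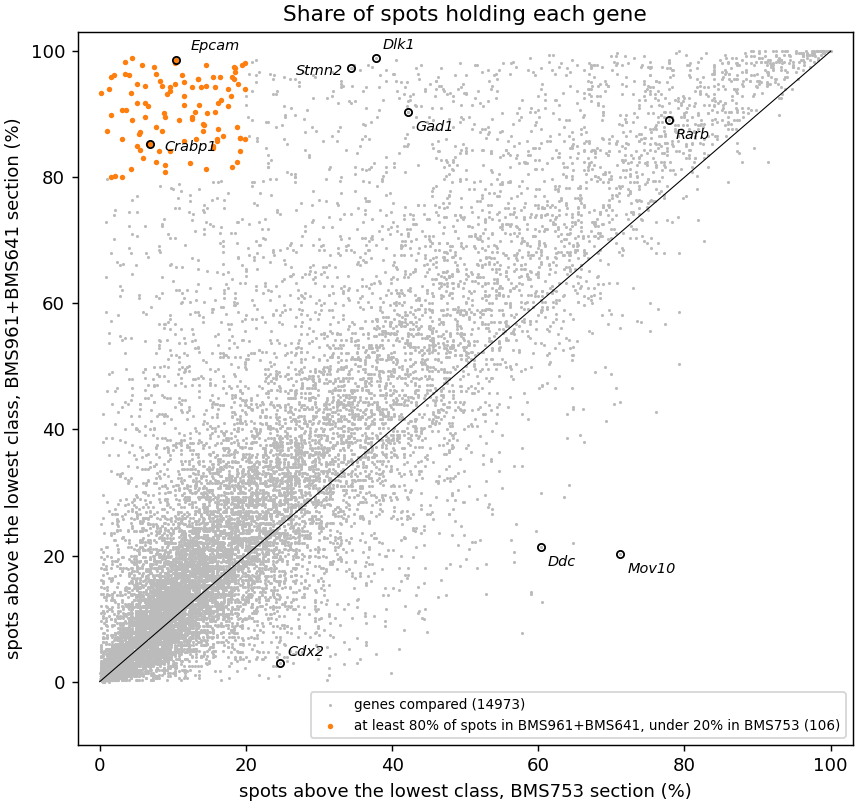
Percent of spots in which each of the 14973 genes was above the lowest class, in BMS753 (horizontal) and BMS961+BMS641 (vertical); the line marks equal shares and orange points are the 106 genes at 80% or more in BMS961+BMS641 and under 20% in BMS753. The upper left corner is filled and the lower right corner is empty; Ddc and Mov10 are among the few genes well below the line.

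The named members of that set have unrelated known functions. Cym, which encodes the milk-clotting protease chymosin, had 0.972 ppm in BMS753 (quadrants 0.476 to 1.60) and 622 ppm in BMS961+BMS641 (559 to 702), the lowest log2 ratio of all named genes, -8.94. Grpel2, which encodes a mitochondrial import cofactor, had 2.55 and 929 ppm (-8.67). Epcam, which encodes an epithelial adhesion protein, had 6.36 ppm (3.06 to 12.9) against 921 ppm (786 to 1037), a log2 ratio of -7.61. It was above the lowest class in 10.4% of BMS753 spots and 98.6% of BMS961+BMS641 spots, and had 11.5 ppm in VitaminA and 10.4 ppm in ATRA. Irgm2, an interferon-induced GTPase gene, had 1.56 and 396 ppm (-7.91), and Rapsn, whose product clusters acetylcholine receptors at the muscle synapse, 3.51 and 604 ppm (-7.71). The others were Wfdc17 (-8.22), which encodes a small secreted protease inhibitor-like protein, Mtag2 (-8.16) and Sowahc (-8.02).

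A graded set, above the lowest class in at least 20% of spots of both sections, held 5715 genes, of which 229 (4.01%) were 2-fold higher in BMS753 and 988 (17.3%) 2-fold lower. The highest ratio belonged to Mov10, an RNA helicase that restrains retroelements, at 211 ppm (184 to 263) in BMS753 and 7.13 ppm (2.86 to 12.2) in BMS961+BMS641, a log2 ratio of 4.06. It had 10.8 ppm in VitaminA and 8.98 ppm in ATRA, so BMS753 was the section that stood apart. Olfml2b, a secreted olfactomedin-like protein gene, had 112 and 7.93 ppm (3.02). Ddc, which encodes the decarboxylase that makes dopamine and serotonin, had quadrants of 101, 75.7, 87.9 and 84.5 ppm in BMS753 and of 7.70, 6.33, 8.06 and 4.19 ppm in BMS961+BMS641, with section levels of 87.8 and 6.49 ppm (2.93). VitaminA (12.9 ppm) and ATRA (9.05 ppm) were again low.

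The remaining graded genes named as high in BMS753 were Fbxw10, Trim52, Fah, Mex3c and Sytl4. Fbxw10 (2.89) is an F-box gene, Trim52 (2.89) belongs to the TRIM family and Fah (2.71) encodes the last enzyme of tyrosine breakdown. Mex3c (2.44) encodes an RNA-binding ubiquitin ligase, and Sytl4 (2.32) acts in granule release. Mex3c reached 620 ppm against 72.1 ppm, and Fah 406 ppm against 38.9 ppm.

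The graded genes low in BMS753 started with Aknad1 (-5.47) and Cdk8 (-5.37), the kinase of the Mediator complex, which had 13.7 ppm against 389 ppm. Dlk1, a Delta-like ligand of progenitors, had 44.8 ppm (33.5 to 55.8) in BMS753 and 1091 ppm in BMS961+BMS641 (-5.22), with 29.9 ppm in VitaminA and 9.09 ppm in ATRA. Ocln, which encodes the tight junction protein occludin, had 45.8 and 897 ppm (-4.91). The neuronal kinesin gene Kif21a (-4.99), Pkhd1l1 (-4.93), a relative of the fibrocystin gene, the ubiquitin-conjugating enzyme gene Ube2h (-4.90) and the interferon-induced Ifi44 (-4.81) completed the 8.

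**Figure D3:**
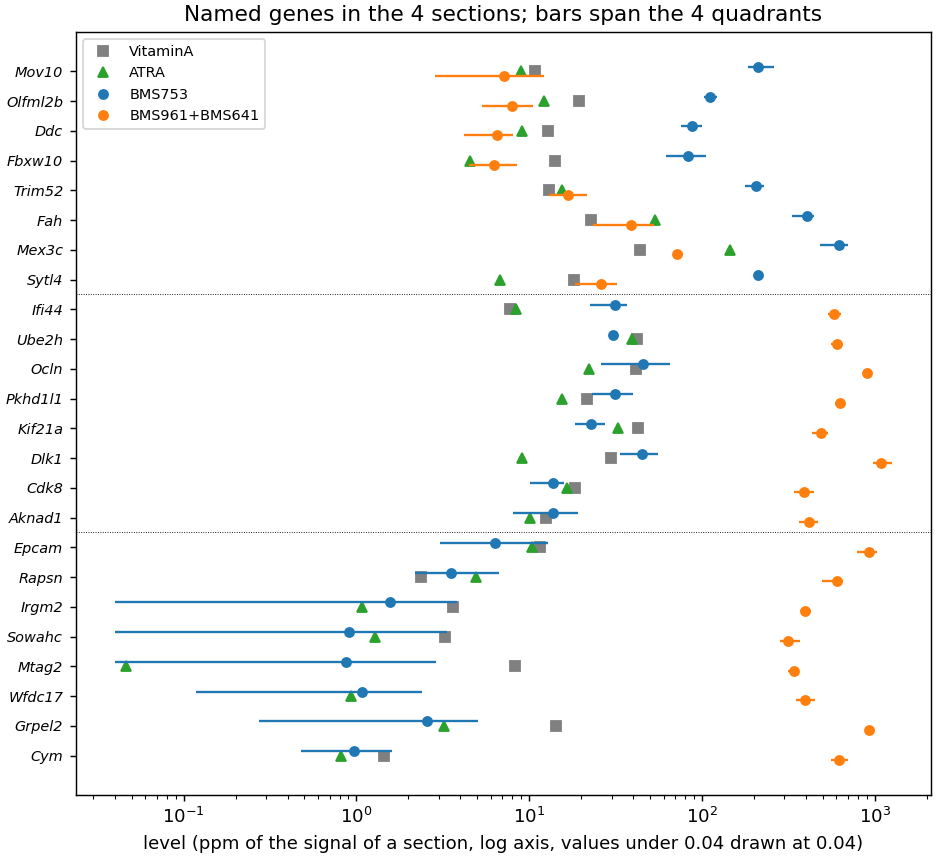
Levels in ppm, on a log axis, of the 24 genes named by rule from the graded and section-wide sets. From the top are 8 graded genes higher in BMS753, 8 graded genes lower and 8 section-wide genes lower. Bars span the 4 quadrants of BMS753 and BMS961+BMS641. Genes not shown, such as Cdx2 and Cpa3, can have ratios as extreme. For Mov10 and Ddc the blue point stands alone on the right, and for Dlk1, Cym and Epcam the orange point does.

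Hox genes give position along the body axis, and their counts stand beside 6.41% of all genes higher and 15.7% lower. Of 5 Hox genes of groups 1 to 4 compared, 0 were 2-fold higher in BMS753 and 1 was lower, and of 13 in groups 5 to 13, 0 were higher and 2 lower. Hoxd3, of the cervical region, had 49.1 ppm (43.6 to 55.0) against 108 ppm (85.5 to 122), a log2 ratio of -1.76. Hoxd12, of the limb and tail, had 16.9 and 49.2 ppm (-2.13), while Hoxa3 had 56.0 and 33.1 ppm (0.10) and Hoxa10 16.6 and 7.55 ppm (0.40). Hoxb3, a hindbrain gene, had 11.9 and 12.1 ppm, against 170 ppm in ATRA. Hoxb1, the early hindbrain target of retinoic acid, was above the lowest class in 1.92% of BMS753 spots and 2.74% of BMS961+BMS641 spots.

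The 9 Meis and Pbx genes, whose products bind DNA with Hox proteins, had a median of -0.65, with 0 higher and 2 lower at 2-fold. Pknox2 had 163 ppm (155 to 172) against 402 ppm (350 to 461), a log2 ratio of -1.94, and its relative Pknox1 went the other way, with 36.8 and 14.1 ppm (0.68). Of 14 midbrain, hindbrain and spinal factors, 1 was 2-fold higher in BMS753 and 6 lower, with a median of 0.07. Egr2, the Krox20 factor of hindbrain segments and myelinating Schwann cells, had 1.66 ppm (0.00865 to 3.34) against 68.9 ppm (61.7 to 81.7), a log2 ratio of -5.36. Lmx1a, a factor of the roof plate and of midbrain dopamine neurons, had 112 ppm against 467 ppm (-2.70), and Pax8, of the midbrain-hindbrain boundary, 12.1 ppm against 53.4 ppm (-2.70). Among 11 forebrain factors 0 were 2-fold higher and 1 lower, with a median of -0.10 and 7 below the median gene. The lower one was Nkx2-1, of ventral forebrain, at 3.71 and 10.3 ppm (-1.91) with overlapping quadrants in ppm. Bcl11b, of deep cortical neurons, had 140 and 55.4 ppm (0.68), and Emx2, of dorsal forebrain, 19.8 and 6.67 ppm (0.80).

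Of the neuronal lists by transmitter, the monoaminergic and cholinergic one had a median away from 0, whereas the GABAergic (0.16, between -0.08 and 0.58 over quadrant pairs) and glutamatergic (-0.12, between -0.47 and 0.31) medians spanned 0. The 15 monoaminergic and cholinergic genes had a median of 0.69, between 0.44 and 1.07 over quadrant pairs, with 13 above the median gene, 3 of them 2-fold higher in BMS753 and 0 lower. Their summed level was 755 ppm in BMS753 and 317 ppm in BMS961+BMS641, beside 691 ppm in VitaminA and 797 ppm in ATRA. Besides Ddc, Tph1, the serotonin-synthesising hydroxylase of the pineal gland and gut, had 30.4 ppm (19.3 to 35.9) against 3.34 ppm (1.37 to 4.65), a log2 ratio of 2.21. Slc18a2, the vesicular monoamine transporter gene, had 36.5 ppm against 9.80 ppm (1.16), and Slc6a3, the dopamine transporter gene, 36.3 ppm against 11.9 ppm (0.89). Th, the rate-limiting enzyme of dopamine synthesis, had 13.2 and 7.64 ppm (0.08), and Tph2, the hydroxylase of brain serotonin neurons, 90.1 and 55.8 ppm (0.04). The enzymes that define dopamine and serotonin neurons were therefore close to the median gene; they were picked out after their values were seen. The monoaminergic and cholinergic median kept its sign in every setting tried, between 0.46 and 1.33. So did the GABAergic median, between 0.05 and 0.80, while the glutamatergic one ran from -0.21 to 0.52.

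Of 19 pan-neuronal genes, 0 were 2-fold higher in BMS753 and 3 lower, with a median of -0.37. Stmn2, a microtubule regulator of growing axons, had 40.4 ppm (32.3 to 51.4) against 533 ppm (519 to 554), a log2 ratio of -4.33. It exceeded the lowest class in 34.3% and 97.3% of spots. VitaminA had 14.3 ppm and ATRA 12.7 ppm. Elavl4, an RNA-binding protein gene of neurons, had 27.8 and 66.2 ppm (-1.86), and the adhesion gene Ncam1 188 and 261 ppm (-1.12). Rbfox3 (445 and 199 ppm, 0.52) and Tubb3, the neuronal tubulin gene (54.8 and 24.0 ppm, 0.52), had higher levels in BMS753. Map2, of dendrites, had 77.5 and 70.6 ppm with overlapping quadrants. Pan-neuronal genes thus had no single direction.

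Among 15 GABAergic genes, 3 were 2-fold higher in BMS753 and 1 lower, with members on both sides of the median gene. Gad1, which makes GABA, was the lower one, at 41.9 ppm (38.1 to 52.9) against 209 ppm (180 to 232), a log2 ratio of -2.94, while its partner Gad2 had 20.5 and 19.5 ppm with overlapping quadrants. Reln, the secreted guidance protein of Cajal-Retzius cells and interneurons, had 500 ppm (473 to 522) against 121 ppm (109 to 135), a log2 ratio of 1.39. The neuropeptide gene Npy had 7.90 and 1.03 ppm (1.49). Of 20 glutamatergic genes, 1 was 2-fold higher and 5 lower. The receptor genes Grm5 (161 and 897 ppm, -3.11) and Gria3 (55.9 and 284 ppm, -2.97) were low in BMS753.

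Synaptic and channel genes had medians near 0, and their counts stand beside 6.41% of all genes higher and 15.7% lower. Of 22 synaptic genes, 0 were 2-fold higher in BMS753 and 3 lower, among them the scaffold gene Shank3 (31.9 and 134 ppm, -2.68) and Cntnap2, a neurexin relative (872 and 1284 ppm, -1.20), whose ratio turned to 0.22 when the share of spots replaced the mean signal. Of 21 potassium channel genes 0 were higher and 4 lower, led by Kcna2 (-2.79) and Kcnip1 (-2.78), the latter at 298 and 1312 ppm. Of 19 sodium and calcium channel genes 1 was higher and 0 lower. Of 26 axon guidance genes 0 were higher and 2 lower, Epha4, an ephrin receptor (249 and 478 ppm, -1.58), and Slit1, a repellent (179 and 241 ppm, -1.07).

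Progenitor and glial genes gave small medians, and their counts stand beside 6.41% of all genes higher and 15.7% lower. Of 6 neural progenitor genes compared 0 were 2-fold apart, and Pax6, a factor of radial glia, had 18.0 and 12.4 ppm with overlapping quadrants. Of 14 astroglial genes 0 were higher and 2 lower, with a median of -0.46. Nfib, a factor of glial onset, had 43.4 ppm against 115 ppm (-2.02), and the glutamate transporter gene Slc1a3 had 79.8 ppm against 27.2 ppm (0.88). Stat3, which carries cytokine signals in reactive astroglia, had 24.1 and 173 ppm (-3.44), beside 676 ppm in ATRA. Of 15 oligodendrocyte genes 1 was higher and 1 lower. Cldn11, the tight junction gene of myelin, had 61.4 ppm (46.1 to 99.7) against 8.86 ppm (4.84 to 14.1), a log2 ratio of 2.02, Mobp, a myelin protein gene, 3.37 and 10.9 ppm (-2.09), and Mbp, the myelin basic protein gene, 61.4 and 39.9 ppm with overlapping quadrants.

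Epithelial genes gave the lowest median of the 45 lists, -1.16, between -1.67 and -0.89 over quadrant pairs. Of 12 compared, 0 were 2-fold higher in BMS753 and 7 were 2-fold lower. Beside Epcam stood Cdh1, which encodes E-cadherin, with 52.7 ppm (40.3 to 63.6) against 502 ppm (476 to 514), a log2 ratio of -3.87, and Grhl2, a factor that maintains epithelia, with 62.9 and 478 ppm (-3.55). The apoptosis-linked junction gene Perp had 3.48 and 26.5 ppm (-3.26). The summed level of the list was 385 ppm in BMS753, 2253 ppm in BMS961+BMS641, 347 ppm in VitaminA and 321 ppm in ATRA. Of the keratin genes, Krt8 had 32.7 and 18.7 ppm (0.14), and Krt5, Krt14, Krt18 and Krt19 were under 5 ppm in both sections and were not compared. With no limit on the level the list median was -0.39. Detection of Epcam across 98.6% of BMS961+BMS641 spots came together with that of Cym and Rapsn, and the part of such section-wide detection in the epithelial result was not tested.

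**Figure D4:**
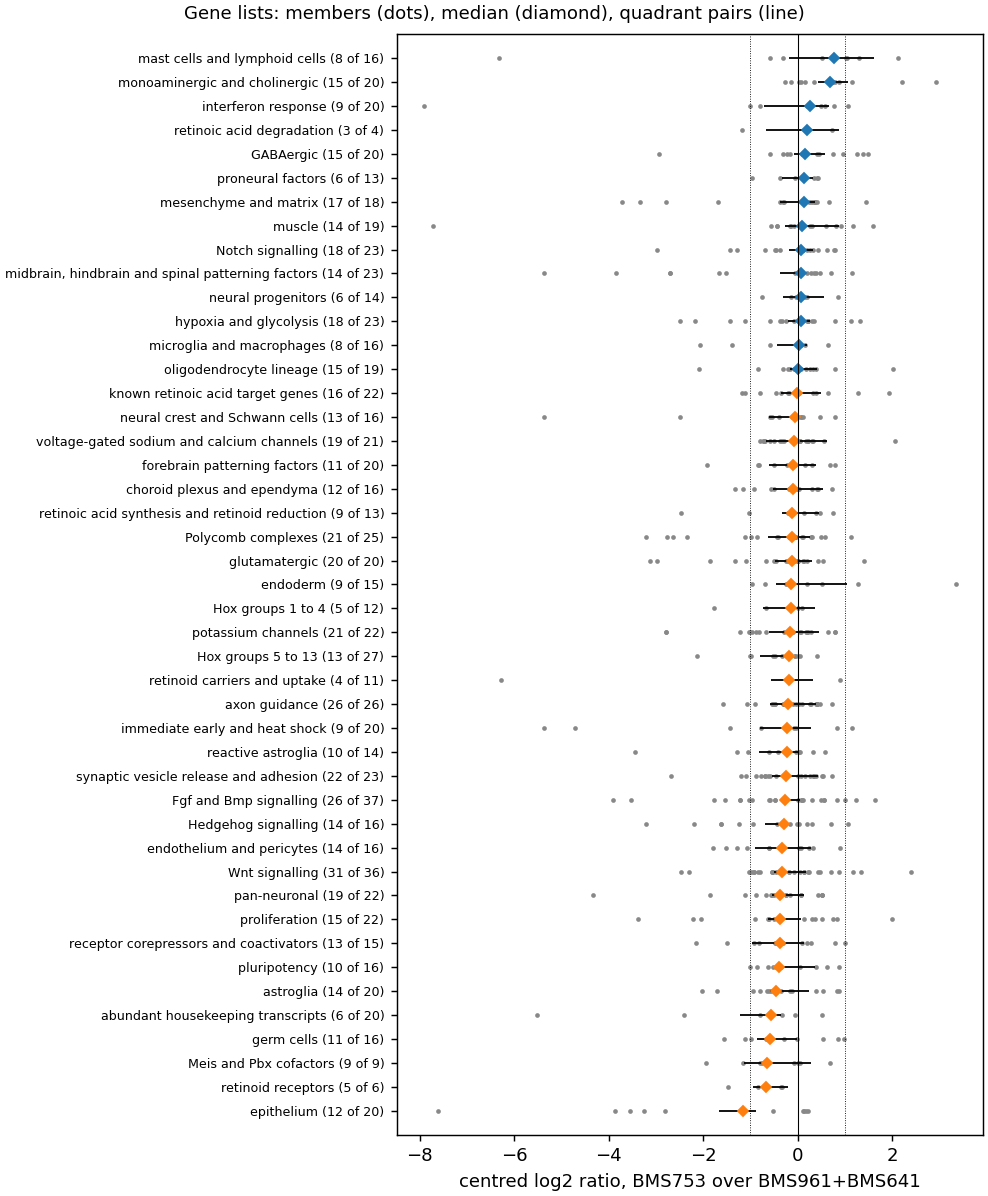
Centred log2 ratios, BMS753 over BMS961+BMS641, of the compared members of 45 gene lists (dots), with list medians (diamonds) and the range of the median over the 16 quadrant pairs (lines); numbers after each name are members compared of members listed. Epithelium lies lowest at -1.16, the mast cell and lymphoid list (0.77) and the monoaminergic and cholinergic list (0.69) highest, and most lists straddle 0.

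The list of mast and lymphoid cell genes had the highest median, 0.77, but its quadrant pairs ran from -0.18 to 1.63. Of 8 compared, 4 were 2-fold higher in BMS753 and 1 lower. Cd4, a T cell coreceptor gene that microglia can also express, had 73.7 and 9.91 ppm (2.13), and ATRA had 71.3 ppm. Cpa3, the mast cell carboxypeptidase, had 7.30 ppm (5.88 to 8.95) against 424 ppm (378 to 458), a log2 ratio of -6.32. The defining T cell gene Cd3e was at 2.11 and 0.530 ppm and the mast cell gene Tpsb2 at 1.73 and 0.650 ppm, close to the floor. Of 8 microglial genes 0 were higher and 2 lower, with Cx3cr1, the fractalkine receptor, at 37.7 and 102 ppm (-2.05).

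Other tissues were mixed, and their counts stand beside 6.41% of all genes higher and 15.7% lower. Of 17 mesenchyme and matrix genes, 1 was 2-fold higher in BMS753 and 4 lower, including Fbn1, of elastic microfibrils (73.2 and 479 ppm, -3.34), and Col5a1, a fibrillar collagen (152 and 671 ppm, -2.78), against Col6a3, a chain of the microfibrillar collagen VI (123 and 28.1 ppm, 1.45). Of 9 endoderm genes, 2 were higher and 0 lower. Cdx2, a caudal and intestinal factor, had 24.0 ppm (16.8 to 29.0) against 0.567 ppm (0.123 to 1.16), a log2 ratio of 3.35, and 6.08 ppm in VitaminA and 1.46 ppm in ATRA. Of 14 muscle genes 2 were higher and 1 lower, with embryonic myosin Myh3 at 147 and 30.3 ppm (1.60). Of 14 endothelial and pericyte genes 0 were higher and 4 lower, with Emcn, an endothelial sialomucin, at 30.0 and 67.4 ppm (-1.78). Of 13 neural crest and Schwann cell genes 0 were higher and 2 lower, Egr2 and Tfap2b (14.8 and 56.0 ppm, -2.49).

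The counts of the signalling pathways stand beside 6.41% of all genes 2-fold higher in BMS753 and 15.7% lower. Hedgehog, Wnt, and Fgf and Bmp genes had 2-fold members in both directions, and Notch genes only lower ones. Of 14 Hedgehog genes 1 was higher and 5 lower: Sufu, the inhibitor that holds Gli factors, had 79.6 ppm (64.4 to 104) against 474 ppm (441 to 498), a log2 ratio of -3.20, and Hhip, which traps the ligand, 71.7 and 21.4 ppm (1.06). The receptor gene Ptch1 had 491 and 971 ppm (-1.62), which became 0.086 by the share of spots. Of 31 Wnt genes 3 were higher and 3 lower, with the secreted inhibitor Dkk1 at 10.1 and 0.345 ppm (2.40), the ligand Wnt5b at 176 and 44.1 ppm (1.33) and the ligand Wnt2 at 8.88 and 30.3 ppm (-2.31). Of 18 Notch genes 0 were higher and 3 lower, among them Rbpj, the DNA-binding partner of Notch (40.7 and 208 ppm, -2.96). Of 26 Fgf and Bmp genes 3 were higher and 7 lower. The receptor genes Fgfr4 (18.7 and 144 ppm, -3.52) and Fgfr1 (47.0 and 104 ppm, -1.76) were low in BMS753, as was Id3, an inhibitor induced by Bmp (0.175 and 10.3 ppm, -3.91), and the ligand gene Fgf17, of the midbrain-hindbrain boundary, was high (14.1 and 2.11 ppm, 1.63).

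Each list of cell state and stress genes described here had more genes 2-fold lower than higher in BMS753. So had all genes, with 15.7% lower and 6.41% higher. The list medians ran from -0.39 for pluripotency to 0.06 for hypoxia and glycolysis. Of 21 Polycomb genes 1 was 2-fold higher in BMS753 and 5 lower. The lower ones included Cbx2 (13.6 and 85.6 ppm, -3.20) and Phc2 (88.5 and 357 ppm, -2.64), of the complex that ubiquitinates histones, and Jarid2 (107 and 348 ppm, -2.33), which guides the methylating complex. Of 15 proliferation genes 1 was higher and 3 lower. Cdk1, the mitotic kinase, had 15.6 and 1.66 ppm (2.00), whereas Cenpe, a kinetochore motor, had 19.0 and 132 ppm (-3.37) and Mcm6, a replicative helicase, 39.9 and 120 ppm (-2.21). Mki67, the usual marker of cycling cells, was under 5 ppm in both sections. Of 10 pluripotency genes 0 were higher and 1 lower, and Pou5f1, the core factor of stem cells, had 9.46 and 7.49 ppm with overlapping quadrants. Of 9 early response and heat shock genes 1 was higher and 3 lower, and the stress factor Atf4 had 0.443 and 23.1 ppm (-4.70). Of 18 hypoxia and glycolysis genes 2 were higher and 4 lower, with Aldoa at 16.8 and 3.56 ppm (1.32) and Pdk1 at 23.3 and 68.6 ppm (-2.16), the first an enzyme of glycolysis and the second a kinase that closes the entry to mitochondrial oxidation. Eef2, the translation elongation factor, had 11.0 and 350 ppm (-5.51), unlike Actb.

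Spatial order was read within each section, gene by gene and for the total signal of a spot. Moran's I, which is 0 without spatial order and rises when neighbouring spots are alike, had a median of 0.0418 over the 5715 graded genes in BMS753 and 0.0241 in BMS961+BMS641. It reached 0.2 for 59 genes in BMS753 and 2 in BMS961+BMS641, with 1 shared. For the total signal of a spot it was 0.419 in BMS753 and 0.495 in BMS961+BMS641. The sections also differ in spots and in genes detected per spot, whose part in this was not tested. The genes below were picked after their values were seen. Among the graded genes, Hsd3b7, an enzyme of bile acid synthesis, led in BMS753 with 0.356, against 0.0774 in BMS961+BMS641. Its quadrants in BMS753 ran from 3849 to 8053 ppm. Fgf12, an intracellular regulator of sodium channels, had 0.350 and 0.140, and Tcf7, a Wnt-responsive factor, 0.323 and 0.131. Genes with large ratios had lower values: Epcam had 0.0279 in BMS753 and 0.0738 in BMS961+BMS641, Stmn2 0.0168 and -0.00898, and Ddc 0.0417 and -0.0381. Rarb had 0.151 and 0.0668.

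**Figure D5:**
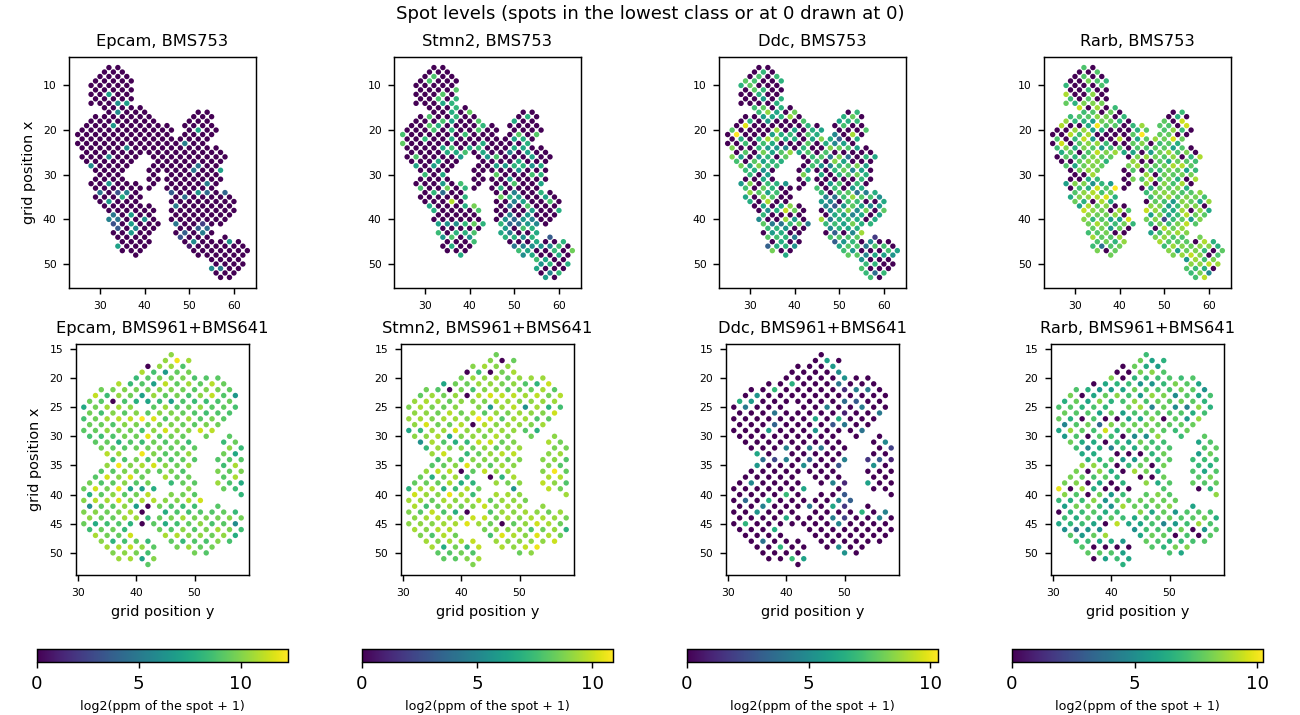
Spot maps of Epcam, Stmn2, Ddc and Rarb in BMS753 (top) and BMS961+BMS641 (bottom), at grid positions, coloured by log2 of the ppm of the spot plus 1 on a scale shared by both maps of a gene; spots in the lowest class or at 0 are drawn at 0. Epcam and Stmn2 fill the BMS961+BMS641 section from edge to edge, Ddc is spread over BMS753, and Rarb is found across both.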

How the data were processed

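Per the labels' protocols, cryosections of fixed organoids were placed on barcoded poly-T arrays and sequenced. What the authors deposited is a normalised signal for every gene at every spot. The file names mark it QNorm, read here as quantile normalisation. The total signal of a spot still varied 31.4-fold in BMS753 and 34.1-fold in BMS961+BMS641. The submitters' processing notes name mm9 as the build. How reads were aligned, counted and filtered into spots is not given in the sources used here. Without counts in the files, depth is unknown and no counting interval can be given.

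Levels are means of the signal over all spots of a section, in ppm of the sum over genes. Genes listed in both sections with at least 5 ppm in either were compared by log2 ratio with a pseudocount of 1 ppm, which understates differences of low genes, minus the median over genes. Quadrants, 4 per section, were cut at the median x, then at the median y of each side. With 1 section a group there was no test, p-value or standard error. Moran's I used the 8 grid neighbours. Promoters were 250 bases before to 50 after each start in RefSeq's GRCm38.p6 table.

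Predicted, ribosomal protein and mitochondrial genes were not named. Named were the 8 highest and 8 lowest ratios with separate quadrants and at least 20 ppm among section-wide genes (80% of spots in one section, under 20% in the other) and among graded genes (20% in both), up to 4 members with separate quadrants of each list described, and 39 fixed genes. Other named genes were chosen after their values were seen: Vim, Th, Tph2, Krt5, Krt8, Krt14, Krt18, Krt19, Nkx2-1, Cd3e, Tpsb2, Prokr2, Syndig1, Hsd3b7, Fgf12 and Tcf7. Some genes that the rule picks are not reported here. The members and lists were chosen with earlier results of these data known. Python 3.11.15, numpy 2.4.6, pandas 2.3.3 and scipy 1.17.1 were used, and the steps were tested on simulated data. Alternatives changed the pseudocount, level filter, summary over spots, tied values, centring, leading genes, spots used, bins of level and span, and quadrants.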

Additional observations from a re-analysis of the deposited data

How the results depend on the processing

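The counts of genes 2-fold higher (960) and lower (2345) in BMS753 and the epithelial list median (-1.16) were recomputed under 21 other settings, of which 2 (leaving out the smaller piece of BMS961+BMS641, and the section-wide genes) were chosen after seeing the data. The count of higher genes became 376 with a pseudocount of 10 ppm, 523 with at least 20 ppm in either section, 1784 with the lowest class at 0 and 3905 with no centring. The count of lower genes became 1368 with a pseudocount of 10 ppm, 1436 by the share of spots and 1239 with no centring. The epithelial median became -0.72 with a pseudocount of 10 ppm, -0.39 with no filter, -2.01 with at least 20 ppm, -0.58 by the share of spots and -0.52 with no centring. Centring and the share of spots act by construction, since the first shifts every ratio and a share cannot pass 100%; for the other settings the cause was not tested. Of 190 named genes compared, 115 were 2-fold apart; 113 of those kept their sign and 57 stayed 2-fold apart in every setting that gave a value. Cntnap2 (0.22) and Ptch1 (0.086) turned by the share of spots. No paired analysis was possible because each group has 1 section. Unknown depth limits the reading of low genes, and the doses differ.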
